A study of Rattus norvegicus with 6 samples.

Results

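The 47 genes described here serve the making of ribosomes: they transcribe the ribosomal RNA precursor with RNA polymerase I, modify it, cut it and fold it into subunits. They are the genes of the 6 deposited expression tables whose symbol begins with Nop, Utp or Rrp and a digit or with Polr1 (31 genes), or is 1 of 16 named ones such as Fbl, Ncl, Npm1 and Dkc1 (16 genes), out of 17093 gene rows in all. The cells were primary rat nucleus pulposus cells, grown from the soft centre of the disc between vertebrae, from male rats, at passages 3 to 6. Serum-starved cells were kept in medium without fetal bovine serum for 48 h (3 libraries), and control cells in DMEM-F12 medium with 10% fetal bovine serum, also labelled 48 h (3 libraries), and no strain, age or genetic change is named in the labels. Ribosomal RNA was removed before sequencing, and the precursor itself was not analysed here. Whether replicate libraries stem from different rats or dishes is not stated, so every p-value below reflects only how far these samples scatter, and that scatter may be technical.

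In a growing cell the nucleolus makes the ribosomal RNA precursor by RNA polymerase I, while small nucleolar RNA-protein particles (snoRNPs) guide methylation (box C/D) and pseudouridylation (box H/ACA) of it. The small subunit processome, a very large assembly that holds the U3 snoRNA and the Utp proteins, forms on the precursor as it is made, and other factors then carry the small and large subunits to maturity. Growth factors act on this pathway at several points, among them the RNA polymerase I factor Rrn3, the transcription factor Myc and the mTOR kinase.

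Serum-starved cells held lower transcript levels of 25 of the 47 genes. All 8 members grouped here as box C/D or box H/ACA snoRNP genes were among these 25. The box C/D core gene Nhp2l1, which the choice of genes left out, did not pass the test described next. Limma was fitted over the 11493 genes that reached 1 in 3 or more libraries, and a gene was called where its p, adjusted by Benjamini-Hochberg, did not exceed 0.05. It called 25 of the 47 lower and 0 higher in serum-starved cells, and 22 did not pass. Over all tested genes 61.1% were called, 29.4% lower and 31.7% higher, so 53.2% lower among the 47 was above that background, and 0% higher was below it. All 47 passed the filter on low values. At an unadjusted p under 0.05, 31 of the 47 were lower and 1 (Ubtf) was higher, and 2 were called higher after quantile normalization (Nob1 and Ubtf) and 2 with library weights (Utp14a and Ubtf). In 30 of the 47 genes every serum-starved library lay below every control library, against 32.5% of all tested genes, and in 3 genes (Ubtf, Nob1 and Rrp12) every serum-starved library lay above, against 35.7% (68.2% of tested genes did not overlap in one direction or the other).

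The sizes were moderate. The median log2 fold change of the 47 was -0.26, on the log2(value + 1) scale and serum-starved minus control throughout, with an interquartile range of -0.47 to -0.09. The median of all tested genes was 0.03, with an interquartile range of -0.32 to 0.35. Nhp2 was the 1 member called lower by at least 1 on this log2 scale, where 825 of all tested genes did (7.18%). The levels of the 47 summed to 1150.69, 1073.98 and 1020.67 in the serum-starved libraries and to 1490.65, 1405.9 and 1415.69 in the control libraries, so the groups did not overlap. As a share of each library's total this was 0.224% to 0.243% in serum-starved and 0.265% to 0.285% in control cells. The values are relative to each library, treated as FPKM (fragment counts scaled by transcript length and library size), so less RNA per cell and fewer cells that make it cannot be told apart, and a change in total RNA per cell was not measured.

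**Figure D1:**
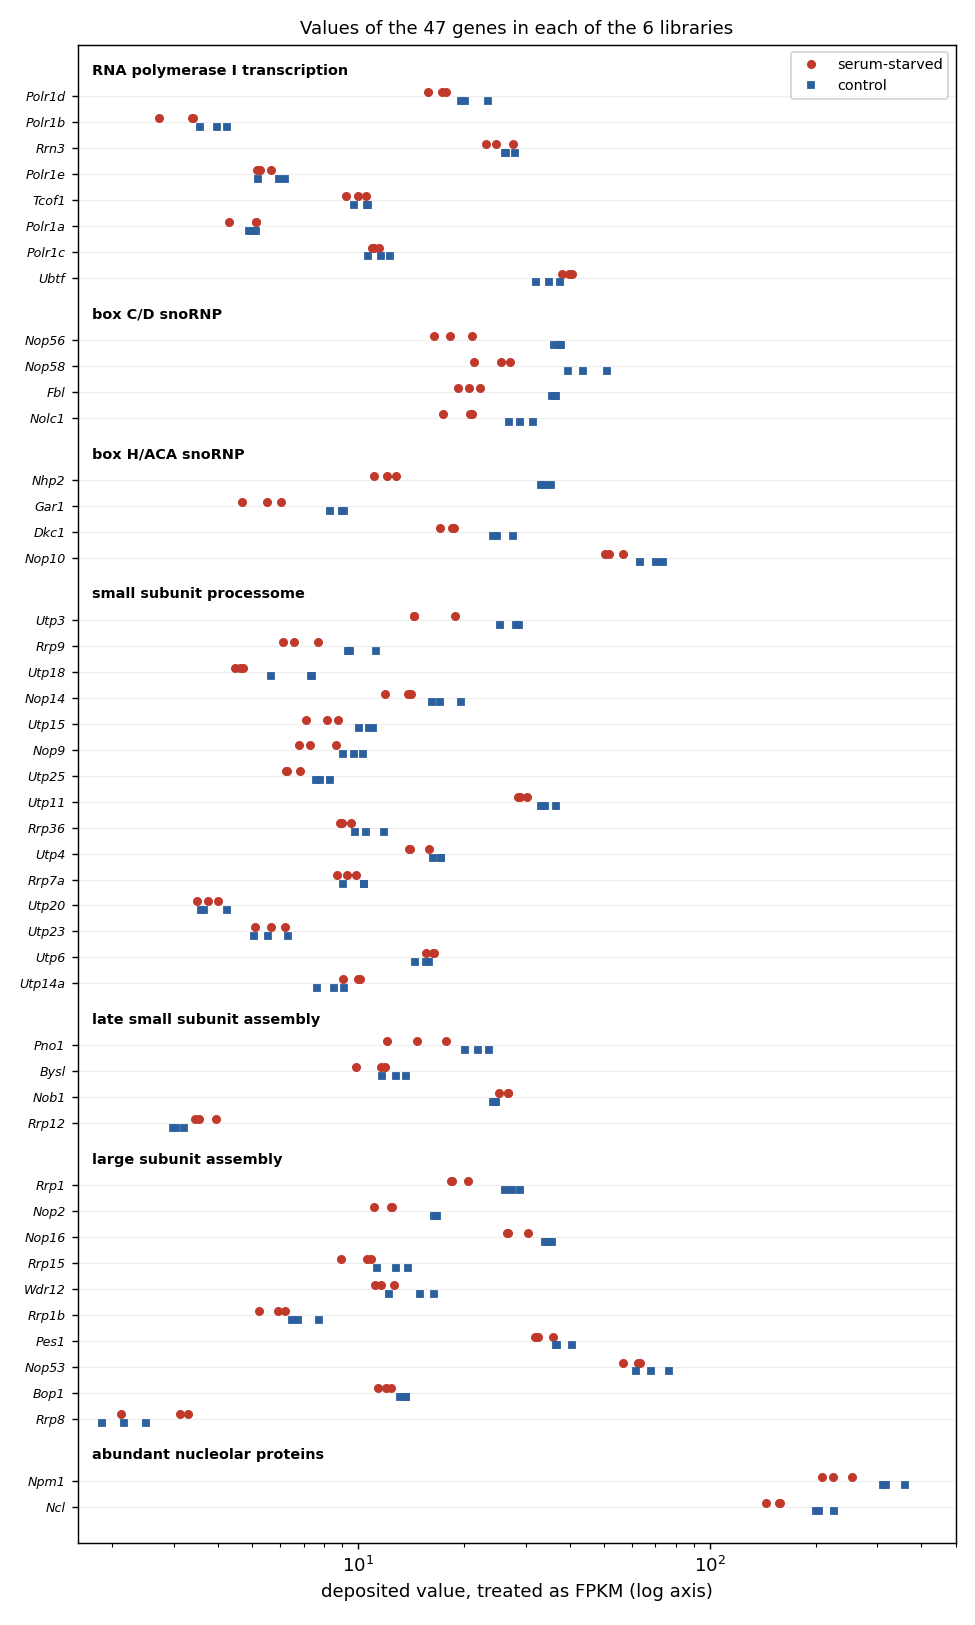
Value of each of the 47 genes in each library (log axis, treated as FPKM), grouped by step, with serum-starved libraries as red circles above control libraries as blue squares. In all 8 box C/D and box H/ACA genes the groups are apart, as for Nhp2 at 11.1 to 12.85 in serum-starved and 33.24 to 35.34 in control libraries, while most RNA polymerase I genes overlap.

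The same libraries differed strongly in proliferation. All 6 proliferation markers examined (Mki67, Top2a, Ccnb1, Cdk1, Pcna and Mcm2) were called lower, with summed levels of 71.3 to 78.4 in serum-starved and 272.74 to 350.1 in control cells. For these and the marker counts that follow, the shares over all tested genes were 29.4% lower and 31.7% higher. Of 14 nucleus pulposus markers 11 were matched and 8 tested, 6 were called lower and 2 higher, and their summed level was 135 to 149 in serum-starved and 196 to 250 in control cells. Most of that gap was Acan: without it the sum was 131 to 146 in serum-starved and 135 to 148 in control cells, with overlap, and without Acan and Car3 it was 106 to 120 in serum-starved and 134 to 148 in control cells. Krt18 was at 0 in every library and Col2a1 at 0 to 0.06 in serum-starved and 0 to 0.01 in control cells, while Acan averaged 3.05 ± 0.333 in serum-starved and 77.5 ± 28.1 in control cells (SD, n = 3 each). Those called higher were Car3 (26.2 ± 0.852 in serum-starved and 1.03 ± 0.219 in control cells) and Pax1 (51.2 ± 5.02 in serum-starved and 27.5 ± 3.43 in control cells; SD, n = 3 each). Of 10 blood, vessel and immune markers 4 were matched, and their summed level was 3.41 to 4.41 in serum-starved and 2 to 3.45 in control cells, with Cd68 called higher and Adgre1 and Cd79a at or near 0. The part of these differences in the results below was not tested.

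Some promoters of these genes carried a sequence feature that the choice of genes did not use. CACGTG, the palindromic E-box bound by Myc among other factors, reads alike on both strands. It was present in the RefSeq promoter windows (250 bases before to 50 after the gene's start, GRCr8) of 15 of the 45 members with an entry (33.3%). It was in 9.86% of the promoters of tested genes (904 of 9167) and in 1826 of all 27457 listed promoters (6.65%). Bop1 and Utp23 had no entry. In 12 of the 15 members the match began within 50 bases of the start. By call, 9 of 25 members called lower (36%) and 6 of 20 that did not pass (30%) held it, and the median log2 fold change was -0.26 with it and -0.28 without it. CCGGAAG, the core letters of ETS-factor sites, read on both strands, was in 21 of the 45 (46.7%) and in 19.6% of promoters of tested genes, and 9 members held it together with CACGTG. The matches are descriptions of letters, not of binding.

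Promoters are printed for the 4 members with CACGTG and the largest change, to show where the match lies, and each is given 5′ to 3′ on the gene's strand from 250 bases before the start through the next 30 bases, with CACGTG in capitals. They are from RefSeq (GRCr8) at chr1:92597157-92597436 (plus strand) for Fbl, chr14:95819874-95820153 (minus strand) for Pno1, chr20:10260330-10260609 (plus strand) for Rrp1 and chrX:157751401-157751680 (plus strand) for Dkc1.
Fbl: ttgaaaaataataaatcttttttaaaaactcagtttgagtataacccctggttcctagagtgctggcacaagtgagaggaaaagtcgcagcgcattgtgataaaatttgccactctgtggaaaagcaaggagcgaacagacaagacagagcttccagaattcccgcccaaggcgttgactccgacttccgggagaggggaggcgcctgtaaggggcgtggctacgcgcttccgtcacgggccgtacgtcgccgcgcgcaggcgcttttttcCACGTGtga
Pno1: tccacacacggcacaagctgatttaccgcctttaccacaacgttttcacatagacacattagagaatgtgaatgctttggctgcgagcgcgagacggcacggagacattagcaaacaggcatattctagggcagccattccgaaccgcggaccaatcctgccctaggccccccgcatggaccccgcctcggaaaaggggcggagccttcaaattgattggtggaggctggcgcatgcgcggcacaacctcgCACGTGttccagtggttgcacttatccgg
Rrp1: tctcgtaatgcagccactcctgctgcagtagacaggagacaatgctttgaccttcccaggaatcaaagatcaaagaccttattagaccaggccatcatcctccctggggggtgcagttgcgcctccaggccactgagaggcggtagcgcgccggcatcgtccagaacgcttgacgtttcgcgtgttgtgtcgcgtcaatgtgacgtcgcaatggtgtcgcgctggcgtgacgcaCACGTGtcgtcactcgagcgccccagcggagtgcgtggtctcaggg
Dkc1: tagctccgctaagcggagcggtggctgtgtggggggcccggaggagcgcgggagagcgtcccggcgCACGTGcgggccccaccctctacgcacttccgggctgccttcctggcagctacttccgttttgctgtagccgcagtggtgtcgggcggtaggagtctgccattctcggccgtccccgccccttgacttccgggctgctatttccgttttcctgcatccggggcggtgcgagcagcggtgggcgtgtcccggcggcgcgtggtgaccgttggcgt
The match began 21 bases after the start in Fbl and 1 base after it in Pno1, and 16 bases before the start in Rrp1 and 184 bases before it in Dkc1. Fbl, Pno1, Rrp1 and Dkc1 were all called lower in serum-starved cells, with log2 fold changes of -0.77, -0.54, -0.50 and -0.48. They were picked for the size of their change, so these calls say nothing of the motif.

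The RNA polymerase I transcription genes that the choice by symbol holds differed little. Outside that choice, 3 further subunits under older symbols, given below, were all called lower. Of the 8 RNA polymerase I transcription members within the choice, 1 was called lower, 0 higher and 7 did not pass. Among all tested genes 29.4% were called lower and 31.7% higher. At an unadjusted p under 0.05, 2 of the 8 were lower and 1 was higher, and their median log2 fold change was -0.07. The number lower was 2 without control replicate 3, after quantile normalization, with median-ratio scaling or with library weights. It was 0 without serum-starved replicate 2 or control replicate 2. Without control replicate 3, after quantile normalization or with library weights, 1 of the 8 was called higher. The summed level of the 8 was 116 ± 2.75 in serum-starved and 119 ± 0.794 in control cells (SD, n = 3 each). Polr1a, the largest catalytic subunit, had values of 5.12, 5.12 and 4.3 in serum-starved and 5.14, 5.05 and 4.91 in control libraries. The groups overlapped, and the log2 fold change was -0.05 ± 0.088 (SE) with a limma Benjamini-Hochberg adjusted p of 0.653. Polr1b, the second-largest subunit, had 3.39, 3.37 and 2.71 in serum-starved and 4.25, 3.97 and 3.56 in control libraries. Its groups did not overlap, but it did not pass (log2 fold change -0.25, limma Benjamini-Hochberg adjusted p = 0.0672). Polr1d, a subunit shared with RNA polymerase III, fell to 17.83, 15.81 and 17.37 in serum-starved libraries, against 20.14, 23.38 and 19.64 in control libraries. It was 1.24-fold lower (log2 fold change -0.29 ± 0.0858 SE, limma Benjamini-Hochberg adjusted p = 0.0176), and it did not pass once serum-starved replicate 2 (adjusted p = 0.0644) or control replicate 2 (adjusted p = 0.0684) was removed. Its partner in the enzyme, Polr1c, had 10.94, 11.12 and 11.44 in serum-starved and 12.3, 11.6 and 10.69 in control libraries, and Polr1e averaged 5.36 ± 0.248 in serum-starved and 5.79 ± 0.536 in control cells (SD, n = 3 each), and neither passed.

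The files name 3 further subunits by older symbols, which the choice by symbol left out. By gene ID the reference table calls Twistnb Polr1f, Cd3eap Polr1g and Znrd1 Polr1h. All 3 were called lower. Znrd1, the small subunit with a role in cutting stalled transcripts, had 11.46, 9.52 and 12 in serum-starved and 18.65, 13.89 and 18.05 in control libraries, and was 1.53-fold lower (log2 fold change -0.57, limma Benjamini-Hochberg adjusted p = 0.00439). Cd3eap had 12.2, 8.13 and 9.27 in serum-starved and 13.51, 14.49 and 12.07 in control libraries, with overlap, and a limma Benjamini-Hochberg adjusted p of 0.0267. Twistnb had 8.43, 8.05 and 6.58 in serum-starved and 10.51, 9.18 and 8.97 in control libraries, with a limma Benjamini-Hochberg adjusted p of 0.0427. Over all 8 subunits 4 were called lower (50%), with a median log2 fold change of -0.27, against 1 of the 5 (20%) that the choice by symbol holds. Of all tested genes 29.4% were called lower. Of the 3 under older symbols 1 was called lower without serum-starved replicate 2, serum-starved replicate 3, control replicate 1 or control replicate 2, and 1 with no filter.

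Rrn3, Ubtf and Tcof1, which act with the polymerase at ribosomal DNA, did not pass the test in either direction. Rrn3 (TIF-IA), the growth-regulated initiation factor, had 23.09, 27.52 and 24.7 in serum-starved and 28, 26.21 and 26.41 in control libraries, and did not pass (log2 fold change -0.10 ± 0.0778 SE, limma Benjamini-Hochberg adjusted p = 0.302). Ubtf, which encodes UBF, the protein that coats active ribosomal DNA, had 40.56, 39.79 and 38 in serum-starved and 32.06, 34.86 and 37.58 in control libraries. All serum-starved values lay above the control values, by little at the nearest pair, and it did not pass (log2 fold change 0.18 ± 0.0734 SE, limma Benjamini-Hochberg adjusted p = 0.0645). Without control replicate 3 Ubtf was called higher. Tcof1, which encodes treacle, a partner of UBF, averaged 9.92 ± 0.656 in serum-starved and 10.4 ± 0.537 in control cells (SD, n = 3 each). Of 16 other RNA polymerase I and ribosomal DNA factors, the shared subunits included, 4 were called higher and 1 lower. These shares, 25% higher and 6.25% lower, were both below those of all tested genes (31.7% higher and 29.4% lower). Those higher were Top1, a topoisomerase (34.6 ± 2.59 in serum-starved and 24.8 ± 1.18 in control cells, SD, n = 3 each), Taf1a, a subunit of the promoter factor SL1 (3.16 ± 0.307 in serum-starved and 2.17 ± 0.0907 in control cells), Ttf1, the terminator protein, and Baz2a, a silencing factor, and Polr2f was lower (1.34-fold). The number lower was 3 without control replicate 3, 2 with median-ratio scaling or with serum-starved replicate 1 left out, 4 with library weights and 0 after quantile normalization. The number higher ranged from 3, as with median-ratio scaling, to 5 without control replicate 3.

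**Figure D2:**
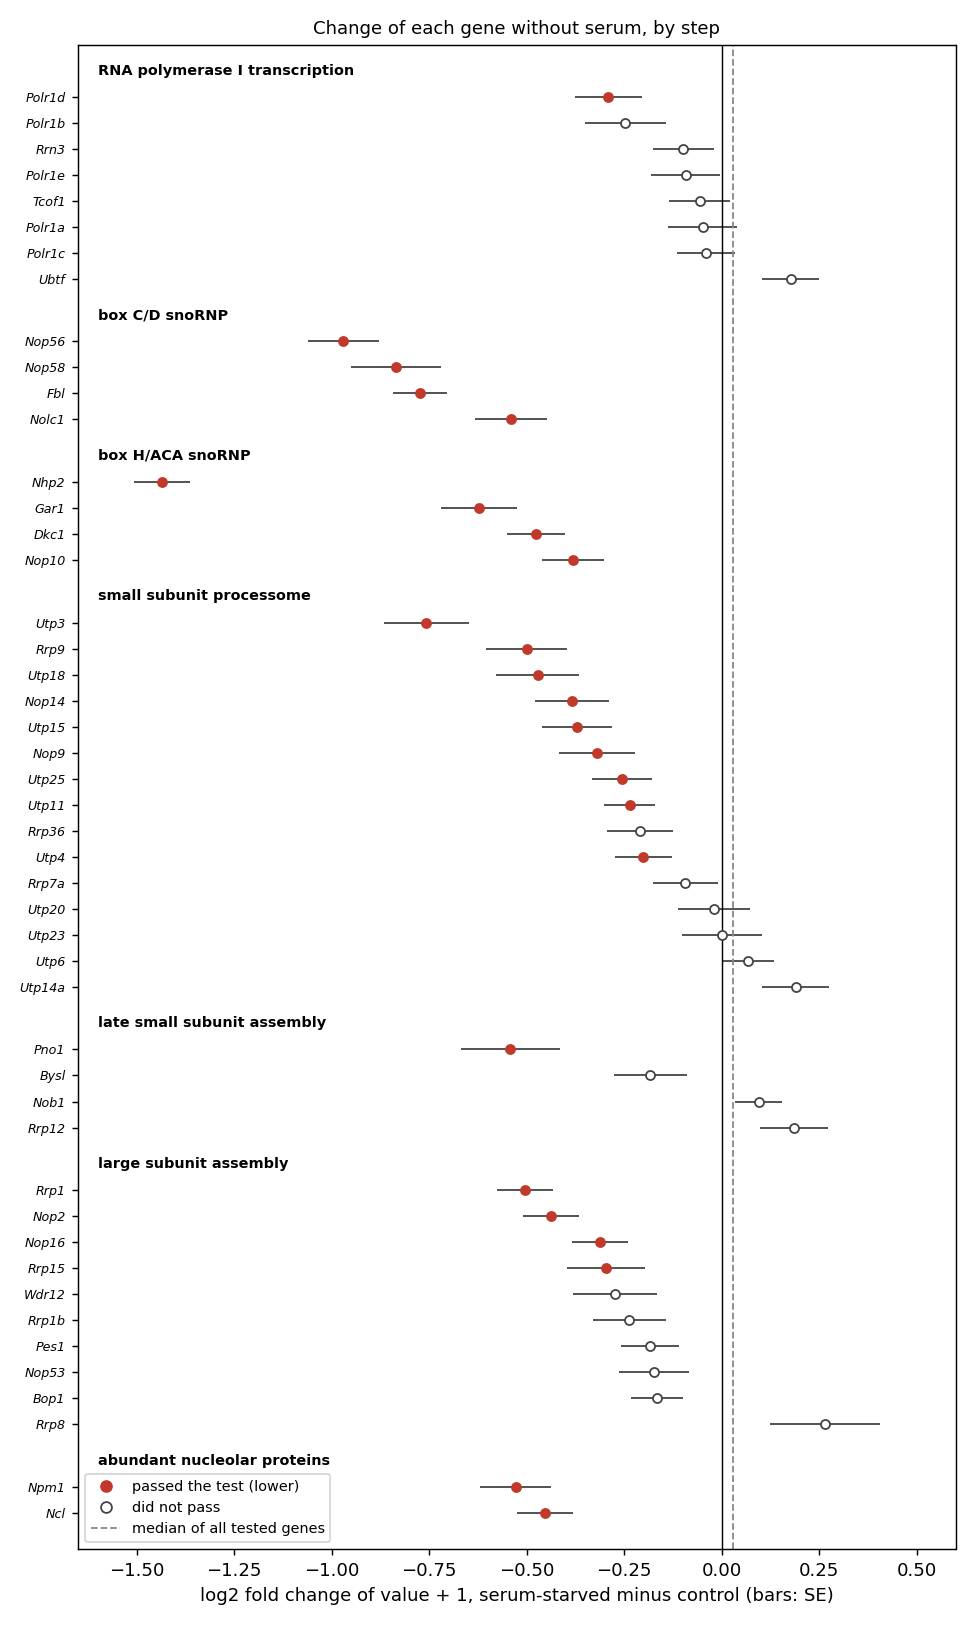
Log2 fold change of each of the 47 genes (value + 1, serum-starved minus control, bars are SE), grouped by step, with filled points for genes called lower and open points for those that did not pass. The dashed line marks the median of all tested genes at 0.03, and the filled points run from -1.43 (Nhp2) to -0.20 (Utp4).

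All 4 members grouped here as box C/D fell (29.4% of all tested genes were called lower). Nhp2l1, which encodes a further core protein of the box C/D particles, lies outside the choice by symbol and did not pass. It had 76.13, 78.61 and 79.83 in serum-starved and 85.31, 86.27 and 82.3 in control libraries, with no overlap. Its log2 fold change was -0.11 (limma Benjamini-Hochberg adjusted p = 0.116), so not every box C/D core gene was called lower. Fbl, which encodes fibrillarin, the methyltransferase of these particles, had 22.27, 20.74 and 19.27 in serum-starved and 36.54, 36.27 and 35.6 in control libraries. Its groups were far apart, at 1.74-fold lower (log2 fold change -0.77 ± 0.0695 SE, limma Benjamini-Hochberg adjusted p = 3.46e-05). Nop56, a scaffold protein that sits beside fibrillarin, had 21.08, 18.23 and 16.43 in serum-starved and 37.87, 37.43 and 36.2 in control libraries. The gap was the widest of the box C/D genes (log2 fold change -0.97 ± 0.0901 SE, limma Benjamini-Hochberg adjusted p = 4.11e-05). Nop58, the paired scaffold protein, had 27.12, 25.43 and 21.33 in serum-starved and 51.21, 43.49 and 39.5 in control libraries, and was 1.82-fold lower (limma Benjamini-Hochberg adjusted p = 0.000381). Nolc1 encodes a nucleolar chaperone of snoRNPs, not a core protein of the particle, and was grouped here with box C/D. Its values were 21.04, 20.77 and 17.44 in serum-starved and 31.49, 26.94 and 28.91 in control libraries. It was 1.47-fold lower (limma Benjamini-Hochberg adjusted p = 0.00118).

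The transcript levels of Fbl, Nop56 and Nop58 can be set against each other if the values are FPKM, which is scaled by length. The ratios are given as descriptions. The level of Nop58 over that of Fbl was 1.18 ± 0.0666 in serum-starved and 1.24 ± 0.15 in control cells (SD, n = 3 each), with overlap. Nop56 over Fbl was 0.893 ± 0.0485 in serum-starved and 1.03 ± 0.0103 in control cells, with no overlap.

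All 4 box H/ACA genes fell too. Nhp2, an RNA-binding core protein, had 12.85, 11.1 and 12.09 in serum-starved and 35.34, 33.24 and 33.81 in control libraries. This was the largest change among the 47, at 2.84-fold lower (log2 fold change -1.43 ± 0.0725 SE, limma Benjamini-Hochberg adjusted p = 1.46e-06). Dkc1, which encodes dyskerin, the pseudouridine synthase, had 18.46, 17.13 and 18.73 in serum-starved and 24.28, 24.92 and 27.6 in control libraries, and was 1.41-fold lower (limma Benjamini-Hochberg adjusted p = 0.000702). Gar1, which helps load and release substrate RNA, had 6.04, 5.5 and 4.67 in serum-starved and 9.14, 8.98 and 8.35 in control libraries, and was 1.63-fold lower (limma Benjamini-Hochberg adjusted p = 0.000709). Nop10, the smallest core protein, had 56.66, 51.68 and 50.31 in serum-starved and 70.47, 63.33 and 73.83 in control libraries, and was 1.31-fold lower (limma Benjamini-Hochberg adjusted p = 0.00316). In all 4 genes the serum-starved values lay below all control values, as in 32.5% of all tested genes.

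The transcript levels of Nhp2 and Dkc1 were in another order in each group, and protein levels were not measured. The level of Nhp2 over that of Dkc1 was 0.696, 0.648 and 0.645 in serum-starved and 1.46, 1.33 and 1.23 in control libraries. Nhp2 thus stood below Dkc1 in every serum-starved library and above it in every control library. This ratio was read after the values were seen and is given as a description. The reference table lists near-copies of 19 members, 71 in all, most of them named as pseudogenes, and 1 of the 71 (a Nop2 copy, at most 0.06) has a row in the files. How reads were split between such genes and their copies is not known, so the levels of Nhp2, Fbl, Dkc1, Nop10, Nop2, Nop16, Pes1, Ncl and Npm1, which have several copies each, are uncertain.

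Of 11 genes listed here as snoRNP assembly factors, Nhp2l1 included, 5 were called lower and 1 higher. These shares were 45.5% and 9.09%, against 29.4% and 31.7% of all tested genes. Ruvbl2 and Ruvbl1, paired ATPases of the R2TP assembly complex, fell to 12.8 ± 0.719 and 17.6 ± 1.61 in serum-starved cells, against 30.8 ± 1.99 and 26.4 ± 2.42 in control cells (SD, n = 3 each). Znhit6, a box C/D assembly factor, rose to 14.2 ± 1.28 in serum-starved cells, against 10.7 ± 0.666 in control cells (SD, n = 3 each; limma Benjamini-Hochberg adjusted p = 0.00475). The number lower was 3 of the 11 with serum-starved replicate 3 or control replicate 1 left out.

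**Figure D3:**
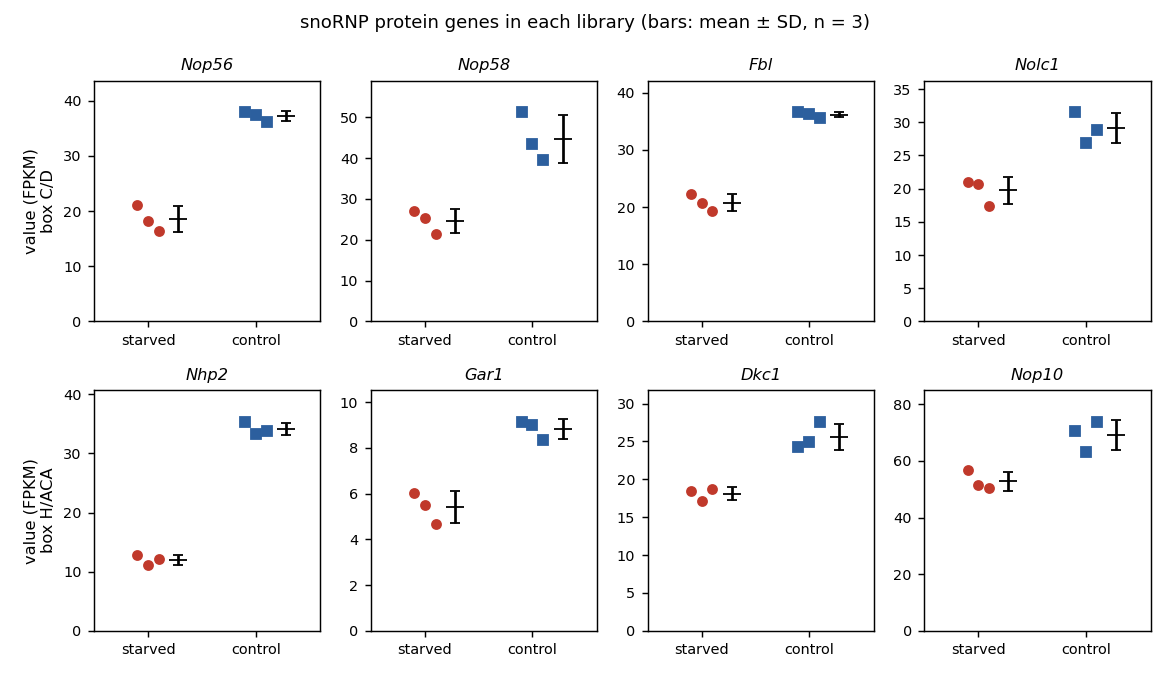
Values (treated as FPKM) of the 4 members grouped here as box C/D (Nolc1 included) in the upper row and the 4 box H/ACA members in the lower row. Each has 1 point per library, serum-starved left of control, and mean ± SD (n = 3) beside the points. In each panel all serum-starved points lie below all control points, with the widest gap in Nhp2.

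In the small subunit processome 9 of 15 members were called lower (60%, against 29.4% of all tested genes), 0 higher and 6 did not pass. The median log2 fold change was -0.24 (unadjusted p under 0.05: 10 lower and 0 higher). Utp3 (Sas10), which sits at the core of the processome, had 18.88, 14.42 and 14.44 in serum-starved and 28.72, 28.2 and 25.34 in control libraries. It was 1.72-fold lower, the largest change of this step (log2 fold change -0.76 ± 0.109 SE, limma Benjamini-Hochberg adjusted p = 0.000477). Rrp9, a protein of the U3 snoRNP, had 7.68, 6.13 and 6.57 in serum-starved and 9.35, 11.22 and 9.47 in control libraries (1.47-fold lower). Utp18, of the UTP-B subcomplex, had 4.72, 4.63 and 4.46 in serum-starved and 7.41, 7.36 and 5.67 in control libraries (1.48-fold lower). Nop14, a processome factor, had 14.16, 13.87 and 11.92 in serum-starved and 19.68, 16.26 and 17.13 in control libraries (1.33-fold lower). All 4 had serum-starved values below all control values, as did 32.5% of all tested genes.

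The other processome members had smaller or no changes. Of the UTP-A members, Utp15 was 1.33-fold lower and Utp4 1.16-fold lower, whereas the UTP-B member Utp6 had 16.36, 16.42 and 15.62 in serum-starved and 15.61, 15.92 and 14.52 in control libraries, with overlap, and did not pass. The smaller changes of Nop9 (1.28-fold lower), Utp25 (1.22-fold), Utp11 (1.18-fold) and Utp4 had limma Benjamini-Hochberg adjusted p values of 0.0209, 0.0189, 0.0132 and 0.0433, and each lost its call in at least 1 alternative. Rrp36, Rrp7a, Utp20, Utp23 and Utp14a did not pass. Utp23 averaged 5.65 ± 0.55 in serum-starved and 5.65 ± 0.644 in control cells, and Utp14a, which works with an RNA helicase of the processome, averaged 9.74 ± 0.613 in serum-starved and 8.43 ± 0.725 in control cells (SD, n = 3 each). Without control replicate 3 Utp14a was called higher. Among 36 other processome and small subunit genes, 15 were called lower (41.7%, against 29.4% of all tested genes) and 0 higher (unadjusted p under 0.05: 18 lower and 1 higher). The 15 were led by the methyltransferase gene Emg1 (10.9 ± 0.945 in serum-starved and 17.8 ± 1.37 in control cells) and the assembly factor gene Tsr1 (14.3 ± 0.429 in serum-starved and 22.1 ± 1.82 in control cells, SD, n = 3 each). Of these 36 genes 1 was called higher without control replicate 1, without control replicate 3 or after quantile normalization, and 3 with library weights.

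Among the late small subunit factors 1 of 4 was called lower (25%, against 29.4% of all tested genes) and 0 higher (unadjusted p under 0.05: 1 lower and 0 higher). Pno1, the partner of Nob1, had 17.78, 14.71 and 12.09 in serum-starved and 23.53, 21.93 and 20.16 in control libraries, and was 1.47-fold lower (log2 fold change -0.54 ± 0.127 SE, limma Benjamini-Hochberg adjusted p = 0.00611). Nob1, the nuclease that makes the final end of 18S ribosomal RNA, had 26.76, 26.68 and 25.23 in serum-starved and 24.27, 24.64 and 24.51 in control libraries. Its serum-starved values all lay above, by little, and it did not pass (log2 fold change 0.10 ± 0.0599 SE, limma Benjamini-Hochberg adjusted p = 0.196). Bysl, a small subunit assembly factor, had 11.66, 11.92 and 9.84 in serum-starved and 13.69, 12.85 and 11.73 in control libraries, with overlap. Rrp12, a factor in subunit export known from yeast, had 3.95, 3.52 and 3.44 in serum-starved and 3.21, 2.98 and 3.03 in control libraries, all above, and did not pass (limma Benjamini-Hochberg adjusted p = 0.093). The median of the 4 was -0.04, and 0.01 without serum-starved replicate 3.

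Of 10 large subunit members 4 were called lower (40%, against 29.4% of all tested genes), 0 higher and 6 did not pass (median log2 fold change -0.25, unadjusted p under 0.05: 8 lower and 0 higher). Rrp1, a large subunit assembly factor, had 20.51, 18.55 and 18.34 in serum-starved and 26.18, 27.49 and 28.94 in control libraries, and was 1.44-fold lower (log2 fold change -0.50 ± 0.0723 SE, limma Benjamini-Hochberg adjusted p = 0.000461). Nop2, a methyltransferase of 28S ribosomal RNA, had 12.53, 12.44 and 11.12 in serum-starved and 16.73, 16.42 and 16.7 in control libraries (1.38-fold lower). Nop16 had 30.37, 26.74 and 26.58 in serum-starved and 33.98, 34.84 and 35.58 in control libraries (1.25-fold lower). These groups did not overlap in any of the 3 genes, with serum-starved values below, as in 32.5% of all tested genes. Rrp15, also 1.25-fold lower (limma Benjamini-Hochberg adjusted p = 0.0315), was no longer called when serum-starved replicate 3, control replicate 1 or control replicate 2 was left out, or with no filter.

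The PeBoW complex, in which Pes1, Bop1 and Wdr12 act together on the large subunit precursor, did not pass in any of its 3 genes, although all 3 had an unadjusted p under 0.05. Pes1 had 35.96, 32.44 and 31.85 in serum-starved and 36.81, 36.65 and 40.72 in control libraries. Bop1 had 12.37, 11.42 and 12.03 in serum-starved and 13.14, 13.71 and 13.66 in control libraries. Wdr12 had 12.63, 11.65 and 11.15 in serum-starved and 15.03, 16.41 and 12.23 in control libraries. The first pair of genes had no overlap and Wdr12 overlapped, and the log2 fold changes were -0.18, -0.16 and -0.27, with limma Benjamini-Hochberg adjusted p values of 0.0608, 0.0606 and 0.0555. Median-ratio scaling called all 3 lower, and 8 of the 10 large subunit members. Of the rest, Rrp1b had 5.24, 6.18 and 5.93 in serum-starved and 6.76, 6.5 and 7.73 in control libraries, with no overlap and no call. Nop53 averaged 60.8 ± 3.7 in serum-starved and 68.9 ± 7.57 in control cells, and Rrp8, a methyltransferase of ribosomal RNA, 2.84 ± 0.63 in serum-starved and 2.17 ± 0.31 in control cells (SD, n = 3 each). Without serum-starved replicate 3, whose Rrp8 value of 2.12 lay within the control range, Rrp8 was called higher.

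Of 49 other large subunit genes, 28 were called lower and 0 higher (57.1% lower, unadjusted p under 0.05: 29 lower and 1 higher), and 1 was called higher without control replicate 1. Pak1ip1, a large subunit assembly factor, fell to 9.26, 8.01 and 7.33 in serum-starved libraries, against 24.39, 22.53 and 18.31 in control libraries, 2.65-fold lower. Nsa2, another such factor, fell to 86.6 ± 6.21 in serum-starved cells, against 150.3 ± 6.62 in control cells (SD, n = 3 each). In the RNA exosome, which trims precursor ends, 7 of 14 genes were called lower (50%, against 29.4% of all tested genes) and 0 higher. The 7 were led by Exosc8 (1.83-fold) and Exosc7 (1.65-fold), and at an unadjusted p under 0.05 the counts were also 7 lower and 0 higher. The exosome count was 3 without serum-starved replicate 3 or control replicate 2, and 4 without serum-starved replicate 2 or control replicate 1.

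Npm1 and Ncl, the abundant nucleolar proteins nucleophosmin and nucleolin, had the highest levels of the 47 and both fell. Npm1 had 253.17, 223.62 and 208.03 in serum-starved and 358.94, 316.79 and 311.51 in control libraries, and was 1.44-fold lower (log2 fold change -0.53 ± 0.0914 SE, limma Benjamini-Hochberg adjusted p = 0.00126). Ncl had 158.36, 157.43 and 144.68 in serum-starved and 226.13, 200.48 and 204.73 in control libraries, and was 1.37-fold lower (limma Benjamini-Hochberg adjusted p = 0.000795). Together they made up 34.6% to 35.8% of the summed level of the 47 in serum-starved and 36.5% to 39.2% in control cells. Across the 47 genes the log2 fold change and the mean log2 level had a Spearman correlation of -0.37, and -0.19 across all 11493 tested genes, which is a description over genes that share the same 6 libraries.

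**Figure D4:**
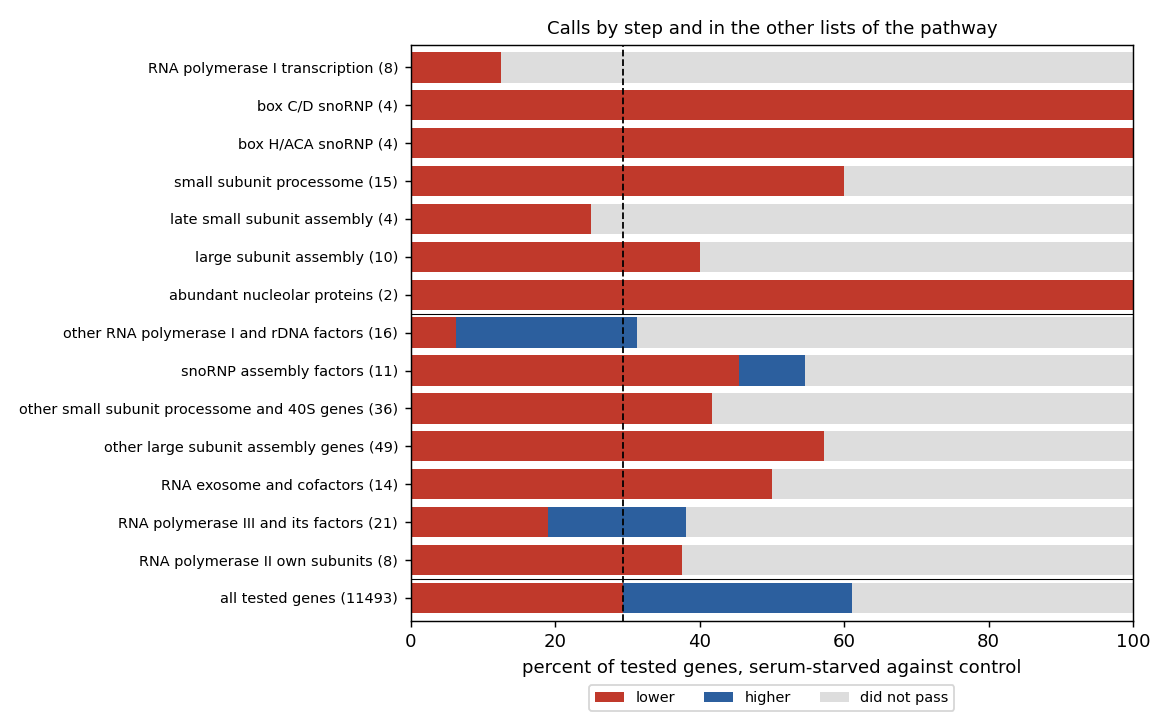
Percent of tested genes called lower (red), higher (blue) or not passing (grey) in serum-starved against control cells, for each step of the 47 genes at the top, other lists of the pathway and of RNA polymerases II and III, and all tested genes at the bottom, with the number tested in brackets. The dashed line is the 29.4% of all tested genes called lower, and the bars of the RNA polymerase I members (1 of 8 lower) and the late small subunit members (1 of 4 lower) end left of it.

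The genes of the other nuclear RNA polymerases were read alongside. Of 21 RNA polymerase III genes 4 were called lower and 4 higher (median log2 fold change -0.06). Each share was 19.0%, against 29.4% lower and 31.7% higher of all tested genes. Polr3g, a subunit of the enzyme, fell to 1.48 ± 0.165 in serum-starved cells, against 2.82 ± 0.585 in control cells (SD, n = 3 each). Gtf3c5, a subunit of TFIIIC, rose to 12.1 ± 0.941 in serum-starved cells, against 8.67 ± 0.597 in control cells (SD, n = 3 each). The number higher was 2 without control replicate 2 or with no filter and 7 with library weights. Of 8 RNA polymerase II subunits not shared with the other enzymes 3 were called lower and 0 higher (unadjusted p under 0.05: 3 lower and 1 higher). The share lower, 37.5%, was near the 29.4% of all tested genes. Polr2g was 1.64-fold and Polr2c 1.52-fold lower. In this set 1 was called higher without control replicate 3 or with library weights and 2 after quantile normalization.

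Among 11 upstream regulators, 10 were tested, of which 4 were called lower and 2 higher. These shares were 40% and 20%, against 29.4% and 31.7% of all tested genes. Myc, which activates many ribosome biogenesis genes, had 17.96, 16.72 and 13.03 in serum-starved and 54.92, 50.12 and 55.61 in control libraries, 3.37-fold lower (limma Benjamini-Hochberg adjusted p = 5.91e-06). Mxd4, whose protein competes with Myc for Max, had 54.19, 63.28 and 63.95 in serum-starved and 22.84, 27.82 and 29.49 in control libraries, 2.26-fold higher (limma Benjamini-Hochberg adjusted p = 4.01e-05). Eif4ebp1, whose protein restrains translation under mTOR control, had 105.34, 90.41 and 97.25 in serum-starved and 236.32, 252.22 and 222.86 in control libraries, 2.43-fold lower (limma Benjamini-Hochberg adjusted p = 4e-06). Larp1 (1.56-fold) and Rptor (1.26-fold) were the other genes called lower. Mtor was called higher, at 12.92, 12.75 and 11.81 in serum-starved and 11.04, 9.59 and 10.56 in control libraries (limma Benjamini-Hochberg adjusted p = 0.0245). Max averaged 67.8 ± 2.83 in serum-starved and 66.2 ± 3.28 in control cells (SD, n = 3 each), and did not pass. Mnt, with 12.02, 12.9 and 11.46 in serum-starved and 11.92, 12.96 and 14.21 in control libraries, did not pass, nor did Rheb or Rps6kb1. The groups of Myc, Mxd4 and Eif4ebp1 did not overlap, as in 68.2% of all tested genes. These values stand beside those of the 47 with no test of a link. The number called higher was 1 without serum-starved replicate 1, serum-starved replicate 2 or control replicate 2, and 4 after quantile normalization.

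Some members share their stretch of the genome with another protein-coding gene in the reference table, and the sources do not say whether reads were assigned by strand, so their levels are uncertain. These were 8 of the 47: Nop56 (with Idh3b), Utp18 (Mbtd1), Wdr12 (Carf), Bop1 (Mroh1 and Scx), Rrp9 (Parp3), Rrp7a (Serhl2), Nop9 (Cideb) and Utp4 (Chtf8 and Derpc). The partner of Nop56 had 38.12, 34.6 and 34.92 in serum-starved and 36.45, 37.89 and 35.31 in control libraries, and did not pass. Mbtd1, Carf and Mroh1 were called higher in serum-starved cells, opposite in direction to Utp18, Wdr12 and Bop1.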

How the data were processed

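The labels' protocols describe total RNA from 6 libraries, depleted of ribosomal RNA and primed at random. The authors deposited 1 value per gene and library, rounded to 2 decimals, treated here as FPKM because the deposited values are not whole and their totals differ (447788 to 473452 in serum-starved and 522165 to 530095 in control libraries), although the file headers name no unit. The tools named, per the submitters' processing notes, are HISAT2, StringTie, limma, DESeq2 and bcl2fastq 2.0, with the mouse build mm10, but 15927 of 17093 gene IDs (93.2%), and all 47 members, matched rat genes of GRCr8. The build behind the values is therefore not known, and the GRCr8 tables served for names, overlaps and promoters only. The depth in reads is unknown, so no counting interval is given. Strand use and the treatment of multi-mapped reads are not stated.

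Values were analysed as log2(value + 1), which understates the change of low genes, for genes that reached 1 in 3 or more libraries. The groups were fitted with limma 3.58.1 (R 4.3.3, intensity trend, treatment as the only term), with Benjamini-Hochberg adjustment over all tested genes and a threshold of 0.05. Folds are ratios of mean deposited values. An exact permutation test of 3 against 3 cannot give a two-sided p below 0.1. The code of the test was also run on simulated data, in which far fewer genes changed than were called here. That run therefore lends no support to the calls. Joins ran in pandas 2.3.3 under Python 3.11.15, arithmetic in numpy 2.4.6, and matplotlib 3.10.9 made the plots. Alternatives were another pseudocount (0.1), no filter, a filter at 5, quantile normalization, median-ratio scaling, no trend, library weights, the replicate number as a block, and leaving out each library.

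The members and the other lists were chosen with earlier results of these data known, and the CCGGAAG motif and the ratios after the values were seen. Named with values are all members of steps of at most 4 genes, the 4 largest changes of larger steps, all RNA polymerase I subunits and the PeBoW genes, and of other lists the 2 largest changes and any against the list's direction, except 1 gene that is not reported here. Other members, Nhp2l1, and upstream and overlapping genes were named after their values were seen. No 2 libraries were alike: at most 0.265% of values of at least 5 were equal in a pair.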

Additional observations from a re-analysis of the deposited data

How the results depend on the processing

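Under 14 alternatives the number of members called lower ranged from 21 (without serum-starved replicate 2 or 3) to 31 (median-ratio scaling and library weights), against 25 as reported, and from 21 to 26 when single libraries were left out. Their median log2 fold change ranged from -0.29 to -0.23. No member called lower changed sign. Of the 25, 19 were called lower in all 14, and Utp4, Utp11, Utp25, Nop9, Rrp15 and Polr1d lost their call in at least 1. The number called higher, 0 as reported, was 2 after quantile normalization and 2 with library weights, and ranged from 0 to 2 when single libraries were left out. Of the 22 that did not pass, 12 passed in at least 1 alternative, 8 as lower and 4 (Nob1, Rrp8, Utp14a and Ubtf) as higher. The same replicate numbers occur in both groups. Deviations of same-numbered libraries correlated between -0.162 and 0.101, and those of different-numbered libraries between -0.164 and 0.164. No pairing by number was visible, but 3 libraries per group cannot exclude one. With the replicate number as a block 25 members were lower and 0 higher (3293 and 3508 of all genes), Utp4 was lost and Wdr12 gained, and of the 16 other RNA polymerase I factors 3 were lower and 3 higher, against 1 and 4. The cause of these shifts was not tested. Values rounded to 2 decimals and unknown depth limit genes of low level.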
